A study of Mus musculus with 6 samples.

Results

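The interleukin 17 axis genes described here are Il17a, Il17f, Il17ra, Il17rc, Il23r and Il1r1, taken as the rows of the deposited matrices that carry these symbols, which are 6 of the 31053 genes in the matrices. They were followed through cells freshly prepared from the covering of the adult mouse brain. All groups were C57BL6 mice of both sexes, 8 to 16 weeks old and not perfused, with no treatment named in the labels, and viable cells were sorted by DRAQ5 and propidium iodide before droplet (10x) RNA sequencing. The 4 cortical surface libraries (CSA1 to CSA4) came from tissue digested off the dorsal cortex, and the 2 bone-associated libraries (BA1 and BA2) came from tissue left on the inside of the skull. Each library pooled 6 to 10 mice, so the library is the replicate, single animals cannot be separated, and no p-value measures the spread between animals. The tests compare pools and share information on spread across all tested genes. A p-value therefore does not rest on a gene's own spread between pools alone.

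Interleukin 17A and interleukin 17F are secreted by type 17 lymphocytes, chiefly γδ T cells and a subset of CD4 T cells, and act on barrier tissues. Il17ra and Il17rc encode the chains of the receptor that binds them, and that receptor signals through the adaptor Act1 to chemokine and acute phase genes in stromal, endothelial and epithelial cells. Il23r encodes the specific chain of the interleukin 23 receptor and Il1r1 the signalling receptor for interleukin 1, and both cytokines drive secretion of interleukin 17 by type 17 cells. In the meninges, γδ T cells are a known source of interleukin 17.

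Il17a and Il17f were the members of most similar pattern, and their genes are neighbours, so their promoters are shown. Il17a lies at chr1:20730905-20734496 on the plus strand and Il17f at chr1:20777146-20790617 on the minus strand of GRCm38, with 42650 bases between them. The 250 bases before the annotated start, from RefSeq (GRCm38.p6), are given 5′ to 3′ with a TATA box (TATAAA, read on the sense strand) and the core letters of nuclear receptor elements (AGGTCA, or TGACCT on the other strand) in capitals. The Il17a window is chr1:20730655-20730904 and the Il17f window is chr1:20784271-20784520 on the minus strand, so the RefSeq start of Il17f used here is inside the wider gene span given above.
Il17a: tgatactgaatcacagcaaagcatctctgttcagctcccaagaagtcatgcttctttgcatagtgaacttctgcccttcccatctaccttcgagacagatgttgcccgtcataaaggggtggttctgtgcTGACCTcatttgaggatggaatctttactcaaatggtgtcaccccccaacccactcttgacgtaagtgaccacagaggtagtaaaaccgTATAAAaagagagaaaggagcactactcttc
Il17f: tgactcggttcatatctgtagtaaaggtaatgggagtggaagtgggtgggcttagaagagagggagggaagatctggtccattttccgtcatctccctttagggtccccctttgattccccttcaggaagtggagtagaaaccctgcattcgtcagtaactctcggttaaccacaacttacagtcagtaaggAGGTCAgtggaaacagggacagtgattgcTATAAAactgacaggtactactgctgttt
TATAAA began 31 bases before the start of Il17a and 29 bases before that of Il17f, and the AGGTCA letters began 120 and 58 bases before, respectively. Of 32851 promoter windows of this length, 7.59% held TATAAA on the sense strand, 14.0% held AGGTCA on either strand and 1.17% held both. Among the members in the promoter table (5 of 6), Il23r held AGGTCA without TATAAA, and Il1r1 and Il17rc held neither. Il23r lies at chr6:67422932-67491855, Il1r1 at chr1:40225080-40317257, Il17ra at chr6:120463247-120487559 and Il17rc at chr6:113471427-113483140. A match is a description of letters and not of binding.

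The 6 libraries held 17560 barcodes and between 8408685 and 56169736 unique molecular identifiers (UMIs, the counted RNA molecules), and 8680 cells were kept. CSA3 and CSA4 stood apart: hemoglobin genes took 84.6% and 71.9% of their UMIs, against at most 0.52% elsewhere, and still 17.9% and 12.04% in their kept cells. Most cortical surface lymphocytes came from those 2 libraries. As the mice were not perfused, the paper states that peripheral immune cells could come from the blood or the tissue. Pairs of libraries shared 0 to 9 barcodes, none of them in a γδ or CD4 T-like cell. Clusters were given a cell class name with "-like" from marker genes. The γδ T-like class (209 cells) had 5 of its 11 listed markers in over 50% of its cells in each preparation, and the CD4 T-like class (223 cells) had 3 of 9 in the cortical surface and 5 of 9 in the bone-associated preparation.

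Il17a and Il17f RNA lay almost wholly in CD4 and γδ T-like cells. Of 3391 Il17a UMIs in kept cells, 69.9% were in CD4 T-like and 29.9% in γδ T-like cells. Of 233 Il17f UMIs the shares were 76.8% and 20.2%. The γδ share of Il17a was 8.92% without BA2 and 42.4% without BA1, so the split between these classes depended on the library. B-like (546 cells) and CD8 T-like cells (118) had no UMI of either gene, and 1 of 234 ILC2-like cells (group 2 innate lymphoid cells) had 1 Il17a UMI. The 4 stromal classes together (2774 mesenchymal-like, endothelial-like, pericyte-like and vascular smooth muscle (VSMC)-like cells) held 1 Il17a UMI, 1 Il17f UMI and 1 Il23r UMI, which sets the level of free RNA against which the lymphocyte values are read. Median depth was 5942 UMIs in γδ T-like, 5908 in CD4 T-like and 4567 in B-like cells.

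Il23r RNA was the member most restricted to γδ T-like cells, with 85% of its 140 UMIs there and 5% each in CD4 T-like and NK-like cells. Il1r1 RNA (2201 UMIs) divided between vessels and lymphocytes: 35.7% in endothelial-like, 17.1% each in VSMC-like and pericyte-like, 10.9% in γδ T-like and 7.0% in mesenchymal-like cells. Il17ra, the receptor chain shared by several interleukin 17 cytokines, was mostly myeloid, with 54.3% of 3461 UMIs in myeloid classes, led by border macrophage-like cells (14.8%), microglia-like cells (12.9%), monocytes or other macrophages (12.6%) and neutrophil-like cells (7.54%). Il17rc, the partner chain, was mostly stromal, with 21.9% of 823 UMIs in mesenchymal-like, 21.5% in VSMC-like, 19.2% in endothelial-like, 17.4% in pericyte-like and 5.95% in choroid plexus-like cells. A further 1343 kept cells got no class name and held 18.4% of Il17ra, 8.75% of Il17rc and 7.13% of Il1r1 UMIs.

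**Figure D1:**
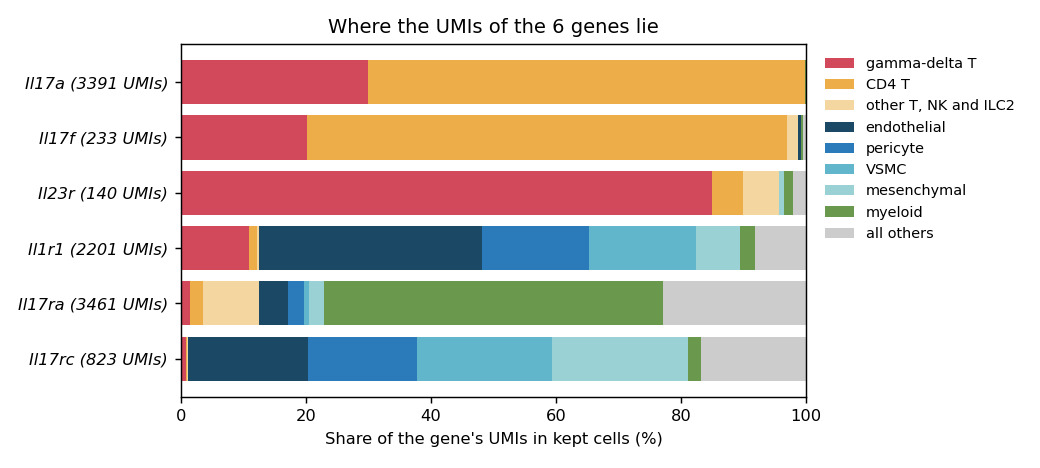
Share of each gene's UMIs in kept cells (percent) held by each group of cell classes, 1 bar for each of the 6 genes. CD4 T-like cells hold 69.9% of Il17a and 76.8% of Il17f UMIs, γδ T-like cells 85% of Il23r UMIs, myeloid classes 54.3% of Il17ra UMIs, and stromal classes most of Il17rc.

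Among the ligands, Il17a in γδ T-like cells was 0 CPM (UMIs of the gene per 1000000 UMIs of the class sum) in CSA3, 33.7 in CSA4, 352.5 in BA1 and 1042 in BA2. The bone-associated libraries were both above both cortical surface libraries. Those cortical surface libraries, CSA3 and CSA4, are the ones rich in hemoglobin. Preparation and blood content therefore cannot be told apart in this comparison. Fitted across 6130 genes, Il17a was 5.56 ± 0.44 (SE) lower on the log2 scale in the cortical surface preparation (n = 2 against 2 libraries, edgeR's quasi-likelihood test, Benjamini-Hochberg adjusted p = 9.4e-33). In this comparison 6.28% of tested genes were called (5.53% higher in the bone-associated and 0.75% higher in the cortical surface preparation), meaning an adjusted p under 0.05 and a log2 change of at least 1.3, and of the 4 members that passed the expression filter Il17a alone was called. With 2 libraries a side and UMIs concentrated in few cells, 4 against 945 UMIs lie behind this value. In this fit the spread was in effect that shared by all tested genes. The small p-value therefore does not measure the spread of Il17a itself between libraries. DESeq2 gave -5.51 with an adjusted p of 0.020, and leaving out a library gave -11.09 (without CSA4, whose absence leaves the cortical surface side at 0), -4.64 without CSA3, -6.09 without BA1 and -4.30 without BA2, all called. In sums over cells, fewer expressing cells and less RNA per cell cannot be told apart without the counts per cell given further on. CSA2, left out of the fit with 6 γδ T-like cells, had 64 Il17a UMIs, of which 63 were in 1 cell, so the cortical surface preparation did hold a strong Il17a cell.

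Il17f in γδ T-like cells was at 0 in CSA3 and CSA4, 84.6 CPM in BA1 and 40.7 CPM in BA2. It did not pass the filter on detection. Against the floor of 3 counts over the group it was at least 3.41-fold higher in the bone-associated preparation.

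In CD4 T-like cells Il17a was 1574 CPM in CSA1, 0 in CSA3 and CSA4, 3347 in BA1 and 2225 in BA2. Both bone-associated libraries were above all 3 cortical surface libraries, but CSA1 rested on 3 positive cells of 13. The fitted difference was -2.82 ± 0.93 (log2 cortical surface over bone-associated, edgeR's quasi-likelihood test, adjusted p = 0.059, n = 3 against 2), which did not pass. CSA1 decided this: without it the cortical surface sum was 0 of 77 cells against 2237 UMIs, at least 385-fold higher in the bone-associated preparation, and the test called it. The cortical surface libraries then left, CSA3 and CSA4, are those rich in hemoglobin, and the part of this was not tested. With cells of up to 20% mitochondrial UMIs the bone-associated mean was 5066 CPM in place of 2786. Il17f in CD4 T-like cells was 246.7 CPM in CSA1, 0 in CSA3, 3.79 in CSA4, 144 in BA1 and 211.4 in BA2. Its groups overlapped through CSA1, and the difference of -1.93 ± 0.73 did not pass (adjusted p = 0.10, same fit). Without CSA1 it was at least 27.0-fold higher in the bone-associated preparation. Of 5511 genes tested in CD4 T-like cells 8.62% were called (6.73% higher in the bone-associated and 1.89% in the cortical surface preparation), and of the 4 members tested, the call was Il1r1, given below.

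Different clusters made up the T-cell classes of the preparations. Of the CD4 T-like cells, a cluster led by Ctla4, Tnfrsf4 and Ccr4 held 133 cells, 129 of them bone-associated, and all 2371 Il17a UMIs. The other CD4 T-like cluster (90 cells, of which 1 was bone-associated) had none, which allows a share of cells with a UMI of up to 4.02% (exact binomial interval, counting error only). Of the γδ T-like cells, a cluster led by Mtcl1, Cd163l1 and Blk had 142 cells, 141 of them bone-associated, with Il17a at 1032 CPM and in 43.0% of cells. The other γδ cluster, led by Tns4, Sox13 and Tcrg-V6, had 67 cells, 47 of them cortical surface, with Il17a at 276 CPM and in 13.4% of cells. The preparation comparisons within a T-cell class are therefore also comparisons of these clusters, which were formed on the expression of the same cells and are given as a description.

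**Figure D2:**
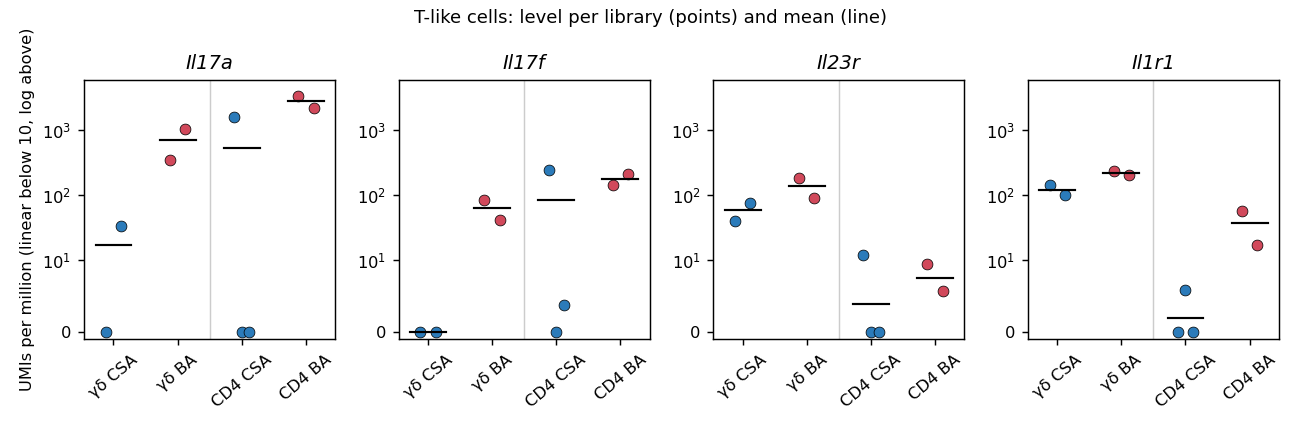
Il17a, Il17f, Il23r and Il1r1 in γδ T-like and CD4 T-like cells of each library with at least 10 such cells (CPM, linear below 10 and log above, 1 point a library and a line at the mean; cortical surface CSA in blue, bone-associated BA in red). Il17a is at 352.5 and 1042 in the bone-associated γδ sums and at most 33.7 in the cortical surface ones, whereas CSA1 is the 1 cortical surface library with Il17a (1574) in CD4 T-like cells.

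Few cells carried the ligands. Il17a was detected in 117 of 8680 kept cells. In the bone-associated preparation it was found in 37 of 130 CD4 T-like cells (28.5%), with a median of 16 UMIs and at most 366 in a positive cell, and in 66 of 161 γδ T-like cells (41.0%), with a median of 4 and at most 103. The 5 highest cells held 51.0% of the CD4 and 40.8% of the γδ Il17a UMIs. Thinned to 1500 UMIs a cell, the positive cells were 31 of 130 (23.8%) and 43 of 161 (26.7%). In the cortical surface libraries, 3 CD4 T-like cells were positive, with 7, 9 and 118 UMIs, and 4 γδ T-like cells. Several identity genes differed between the positive cells. Of the Il17a-positive CD4 T-like cells, 100% had the αβ receptor gene Trac, 67.5% Cd4, 2.5% the γδ receptor gene Trdc and 0 Cd163l1, and of the Il17a-positive γδ T-like cells 94.3% had Trdc, 95.7% Cd163l1 and 0 Cd4. Some were not exclusive to a class: Trac was also found in 22.9% of the positive γδ T-like cells, and Tcrg-C1 in 17.5% of the positive CD4 and 97.1% of the positive γδ T-like cells. Tcrg-V6 was found in 40% of the positive γδ T-like cells, and Trbc2 was shared, in 97.5% of the positive CD4 and 92.9% of the positive γδ T-like cells. Median depth of positive and negative cells was 6337.5 and 5726 UMIs in γδ T-like and 6157.5 and 5861 in CD4 T-like cells.

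Il17f accompanied Il17a mainly in CD4 T-like cells. Among bone-associated CD4 T-like cells, Il17f was found in 12 of 37 cells with Il17a (32.4%) and in 2.15% of those without. In γδ T-like cells it was found in 4 of 66 (6.06%) and in 2.11% of those without. In CD4 T-like cells Il17f reached 47 UMIs in a cell that held 34 of Il17a, and 37 in the cell with 366. Cells of 1 library are not replicates, and no test was made over them.

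**Figure D3:**
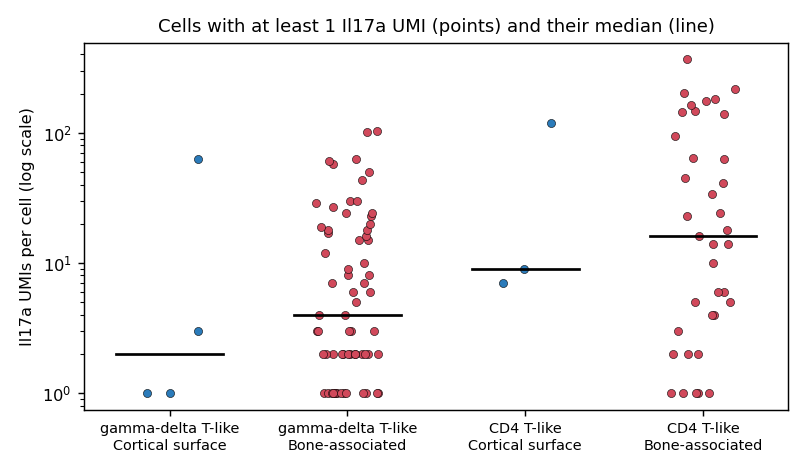
Il17a UMIs per cell (log axis) for each Il17a-positive γδ T-like and CD4 T-like cell, by preparation, 1 point a cell and a line at the median. Positive CD4 T-like cells reach 366 UMIs with a bone-associated median of 16, and positive γδ T-like cells reach 103 with a median of 4.

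The upstream receptors separated the γδ from the CD4 T-like class. Il23r was 40.4 CPM in CSA3, 75.8 in CSA4, 183.3 in BA1 and 89.6 in BA2 γδ T-like cells, against 0, 0, 9.39 and 5.71 in CD4 T-like cells of the same libraries. All γδ values lay above all CD4 values. Il23r was 4.28 ± 0.47 higher on the log2 scale in γδ T-like cells (adjusted p = 1.7e-08, edgeR's quasi-likelihood test with the library as a block, n = 4 libraries each, higher in 4 of 4). Il1r1 was 141.3, 101, 232.6 and 206 CPM in γδ T-like cells and 5.80, 0, 56.4 and 17.1 in CD4 T-like cells of CSA3, CSA4, BA1 and BA2. Again no value overlapped, and Il1r1 was 3.04 ± 0.34 higher on the log2 scale in γδ T-like cells (adjusted p = 3.2e-08, higher in 4 of 4). Of 5524 genes, 7.24% were called in this comparison, 4.07% higher in γδ and 3.17% higher in CD4 T-like cells. Thinned to 1500 UMIs a cell, bone-associated Il1r1 was found in 36 of 161 γδ T-like cells (22.4%) and in 5 of 130 CD4 T-like cells (3.85%). Unthinned these shares were 61.5% and 13.1%, and in B-like cells, which should lack the gene, 1 of 546 cells had an Il1r1 UMI.

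For Il17a the same fit gave -1.92 ± 0.30, lower in γδ than in CD4 T-like cells (adjusted p = 1.8e-05, edgeR's quasi-likelihood test), but the levels overlapped, and γδ T-like cells were the higher class in 1 of 4 libraries while CSA3 had 0 in both classes. The call was lost with DESeq2 (-0.21, adjusted p = 0.996) and without the library block (-1.94, adjusted p = 0.68). Il17ra did not pass (-0.17 ± 0.34, adjusted p = 0.84), and Il17f (47 UMIs in γδ and 158 in CD4 T-like cells) and Il17rc (7 and 1) did not reach the filter.

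Between preparations, the receptors in γδ T-like cells moved less than Il17a. Il23r differed by -1.23 ± 0.46 (log2 cortical surface over bone-associated, adjusted p = 0.087), and Il1r1 by -1.09 ± 0.36 (adjusted p = 0.035), which is past the p threshold and short of the fold threshold. Both had non-overlapping libraries, where the cortical surface side was again only CSA3 and CSA4, the libraries rich in hemoglobin. Il17ra was 111 and 84.2 CPM in CSA3 and CSA4 and 35.3 and 29.1 in BA1 and BA2, the opposite order, with 1.39 ± 0.53 (adjusted p = 0.092, edgeR's quasi-likelihood test), which did not pass. In CD4 T-like cells Il1r1 was 0, 5.80 and 0 CPM in CSA1, CSA3 and CSA4 and 56.4 and 17.1 in BA1 and BA2, a difference of -3.90 ± 1.03 that was called (adjusted p = 0.0168, n = 3 against 2), from 1 UMI against 27. BA1 held 18 of the 27, and without it Il1r1 was in 6.33% of the bone-associated cells, below the 10% filter, and was not tested. Without CSA4 it was -3.16 (adjusted p = 0.156) and with cells of up to 20% mitochondrial UMIs -2.90 (adjusted p = 0.074), both no longer past the threshold, and DESeq2 gave no adjusted p. Il17ra in CD4 T-like cells lay between 34.1 and 87.0 CPM in all 5 libraries and differed by 0.01 ± 0.46 (adjusted p = 0.99).

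Other type 17 genes in the T-cell classes were taken from lists of the pathway. Of 10 transcription factors tested between γδ and CD4 T-like cells, 3 were higher in γδ T-like cells and 7 did not pass. Among them Zbtb16, which encodes the innate-like lymphocyte factor PLZF, was 2.82 ± 0.55 higher on the log2 scale and Ikzf3 1.57 higher. Of 6 receptor partner genes tested, 4 were higher in γδ T-like cells, among them Il17re (2.06), Il18r1 (1.41) and Cxcr6 (1.39), and 2 were higher in CD4 T-like cells. Of 3 other cytokine genes tested, Ifng (-2.91), which encodes interferon γ, and Csf2 (-2.80), which encodes the growth factor GM-CSF, were called higher in CD4 T-like cells and 1 did not pass. The Csf2 call rested on 1 bone-associated library, at 533.3 CPM in CD4 T-like cells against 25.0 in the other and at most 11.7 in the cortical surface ones, and overlapped the γδ T-like levels of 7.05 to 50.5 CPM. Interleukin 17 receptor signalling genes gave 0 calls of 14 between the classes. Between preparations 8 of 14 were higher in bone-associated γδ T-like and 7 of 14 in bone-associated CD4 T-like cells, with none higher in the cortical surface preparation, where 5.53% and 6.73% of all tested genes were called higher in the bone-associated preparation. For the counts between the classes, the shares over all tested genes were 4.07% higher in γδ and 3.17% higher in CD4 T-like cells. The factor gene Rora was higher in bone-associated cells in both classes (-2.03 in γδ and -2.96 in CD4 T-like cells). Il22, another type 17 cytokine gene, averaged 44.5 ± 52.2 CPM (SD, n = 2) in bone-associated CD4 T-like cells and was at 0 in the 3 cortical surface libraries.

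For the receptors on the recipient side, Il1r1 was found in all 4 stromal classes, and its order between preparations differed between endothelial-like and pericyte-like cells. The preparations were clustered separately, so each stromal cluster holds cells of 1 preparation by construction, and these comparisons are also comparisons of different clusters. In endothelial-like cells Il1r1 was 154.6, 144.6, 133.6 and 128.6 CPM in CSA1 to CSA4 and 101 and 59.0 in BA1 and BA2. The cortical surface libraries were all higher, by 0.88 ± 0.21 on the log2 scale (edgeR's quasi-likelihood test, adjusted p = 0.00699, n = 4 against 2), which is below the fold threshold. Of 7706 genes 6.75% were called in this class, and none of the 3 members tested. In pericyte-like cells the order was opposite, with 69.9, 48.0, 71.7 and 56.0 CPM in CSA1 to CSA4 and 209.9 and 84.0 in BA1 and BA2. Il1r1 was 1.38 ± 0.31 lower on the log2 scale in the cortical surface pericyte-like cells and was called (adjusted p = 0.00527, same test), where 10.7% of 7999 genes were called and Il1r1 was the 1 call among 3 members tested. BA1 carried much of it: without BA1 the value was -0.64 (adjusted p = 0.21), without CSA2 it was -1.25 (adjusted p = 0.016, short of the fold threshold), and with at least 1000 genes a cell -1.06 (adjusted p = 0.062). All adjusted p-values here are from edgeR's quasi-likelihood test.

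The difference between these effects was itself tested, in an analysis chosen after the values were seen. Only pairs of classes with opposite order and no overlap of libraries were tested, and the adjustment does not cover that choice. No library was left out in these fits, and the pericyte-like and CD4 T-like effects leaned on BA1. The preparation effect on Il1r1 was 2.21 ± 0.25 larger on the log2 scale in endothelial-like than in pericyte-like cells (adjusted p = 6.6e-06, edgeR's quasi-likelihood test with the library as a block), where 8.51% of 9052 genes were called. It was also larger than in VSMC-like cells (1.43 ± 0.25, adjusted p = 0.00068, 5.95% of genes called), in γδ T-like cells (2.04 ± 0.42, adjusted p = 0.00012, 2.58% called) and in CD4 T-like cells (4.97 ± 0.94, adjusted p = 1.1e-05, 4.93% called). In the fits with γδ T-like or CD4 T-like cells the spread was again in effect that shared by all tested genes. For Il17ra, whose order was opposite in γδ T-like and pericyte-like cells, the difference of 2.22 ± 0.80 did not pass (adjusted p = 0.12, 2.86% of genes called). Median depth differed the same way in both classes, at 5171 UMIs in cortical surface and 7497.5 in bone-associated endothelial-like cells and 4532.5 and 8029 in pericyte-like cells. In VSMC-like cells Il1r1 was 54.0 and 39.9 CPM in CSA1 and CSA2 and 66.5 and 58.1 in BA1 and BA2, which did not pass (-0.56 ± 0.26, adjusted p = 0.22, 6.24% of 8351 genes called). In mesenchymal-like cells it was 29.0, 15.9, 33.5 and 38.5 CPM in CSA1 to CSA4 and 39.9 and 22.8 in BA1 and BA2, with overlapping groups (-0.16 ± 0.42, adjusted p = 0.87, 15.1% of 9536 genes called).

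**Figure D4:**
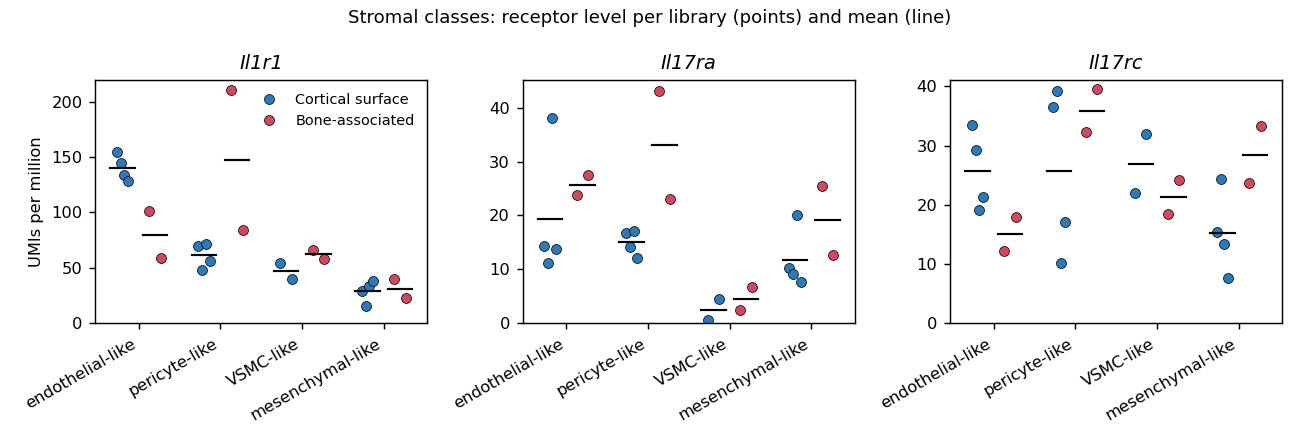
Il1r1, Il17ra and Il17rc in the 4 stromal classes of each library (CPM, 1 point for each library with at least 10 cells of the class and a line at the mean). Il1r1 is higher in the cortical surface libraries in endothelial-like cells (128.6 to 154.6 against 59.0 and 101) and higher in the bone-associated libraries in pericyte-like cells (84.0 and 209.9 against 48.0 to 71.7).

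Across stromal classes, Il1r1 was lower in mesenchymal-like than in endothelial-like cells in 6 of 6 libraries (-1.85 ± 0.26 on the log2 scale, adjusted p = 0.00023, edgeR's quasi-likelihood test with the library as a block). In that comparison 25.2% of 9433 genes were called. By mean level over libraries Il1r1 was highest in bone-associated γδ T-like cells (219 ± 18.8 CPM, SD, n = 2), followed by bone-associated pericyte-like cells (147 ± 89.1, n = 2), cortical surface endothelial-like cells (140.3 ± 11.6, n = 4) and cortical surface γδ T-like cells (121 ± 28.5, n = 2), of which each neighbouring pair lay within 1 SD of the more variable group. Within the endothelial-like class the level differed between clusters: the cortical surface cluster led by Vwf and Slc38a5, genes of venous endothelium, had 285 CPM and Il1r1 in 65.6% of 215 cells, the cluster led by Car5a and Mfsd2a, a capillary gene of the blood-brain barrier, 61.2 CPM and 21.8% of 248 cells, and the cluster led by Cytl1 and Gkn3, an arterial gene, 8.66 CPM and 4.82% of 83 cells. In the bone-associated preparation the cluster led by Slc38a5 and Slco1a4 had 147.8 CPM, the cluster led by Btnl9 and Gpihbp1 44.9 and the cluster led by Selp, a gene of venous endothelium, and F8 33.7. The clusters were formed on these cells, so these values are a description.

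Within pericyte-like cells, the clusters led by the chemokine gene Ccl19 held Il1r1 at 145.6 CPM and in 67.6% of 111 bone-associated cells and at 74.8 CPM and in 34.6% of 240 cortical surface cells. The other pericyte-like cluster of each preparation had 65.5 CPM in the bone-associated (35.1% of 77 cells) and 36.0 CPM in the cortical surface preparation (14.0% of 264 cells). Within mesenchymal-like cells, the bone-associated cluster led by Apod and Inmt had 69.3 CPM, the bone-associated cluster led by Comp and Cilp2 7.56 and the cortical surface cluster led by Slc22a6 and Gjb2 23.2. Within the bone-associated mesenchymal-like cells alone these 2 clusters were farther apart than the sums of the preparations.

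**Figure D5:**
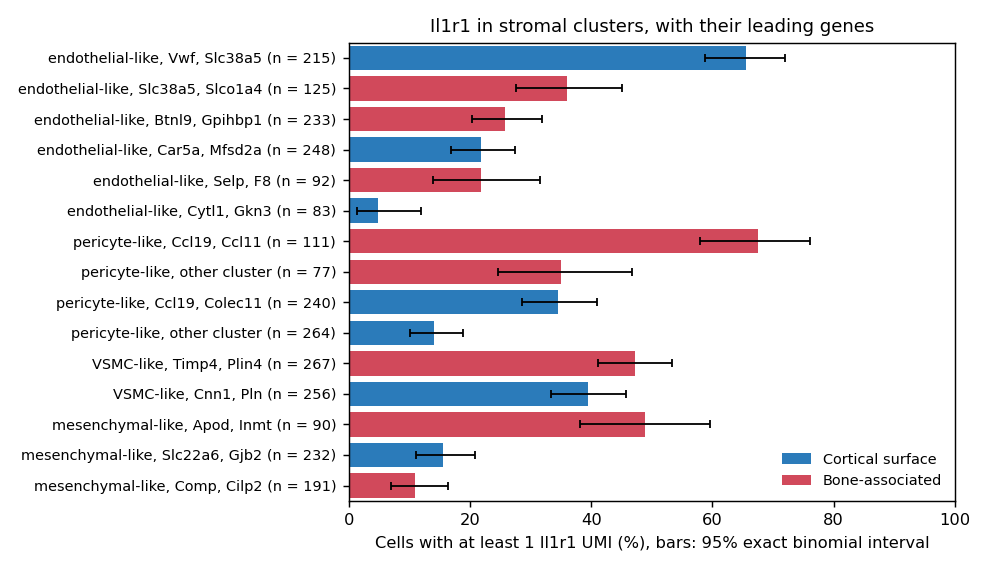
Share of cells with at least 1 Il1r1 UMI (percent) in stromal clusters of at least 50 cells, each given with 2 leading genes (except 2 pericyte-like clusters shown as other) and coloured by preparation, with 95% exact binomial intervals that cover counting error only. The cortical surface endothelial-like cluster led by Vwf and Slc38a5 is at 65.6% and the one led by Cytl1 and Gkn3 at 4.82%.

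Il17ra was detected in all 4 stromal classes at low levels. In endothelial-like cells it was 14.3, 11.2, 38.2 and 13.8 CPM in CSA1 to CSA4 and 23.7 and 27.6 in BA1 and BA2, with CSA3, a library rich in hemoglobin, above all others. In pericyte-like cells it was 16.7, 14.2, 17.1 and 12.2 CPM in CSA1 to CSA4 and 43.1 and 23.0 in BA1 and BA2, 1.24 ± 0.36 lower on the log2 scale in the cortical surface preparation (adjusted p = 0.028, edgeR's quasi-likelihood test), past the p and short of the fold threshold. The endothelial-like (-0.66 ± 0.37, adjusted p = 0.29) and mesenchymal-like differences (-0.61 ± 0.50, adjusted p = 0.49) did not pass. VSMC-like cells had 0.666 and 4.43 CPM in CSA1 and CSA2 and 2.46 and 6.66 in BA1 and BA2, too low for the test, and Schwann-like cells had no Il17ra UMI.

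The highest Il17ra levels were in myeloid classes. Neutrophil-like cells averaged 177 ± 5.47 CPM (SD, n = 2) in the cortical surface and 122 ± 17.5 (n = 2) in the bone-associated preparation. Monocytes or other macrophages averaged 171 ± 32.1 and 158 ± 42.9 (n = 2 each), microglia-like cells of the cortical surface 107 ± 28.2 (n = 4), and the spreads of neighbours in this order overlap. For neutrophil-like cells and monocytes or other macrophages the cortical surface libraries were CSA3 and CSA4, those rich in hemoglobin. Border macrophage-like cells had 51.4, 48.4, 47.9 and 33.4 CPM in CSA1 to CSA4 and 140.1 and 136 in BA1 and BA2. The preparations did not overlap in that class, and the difference was not tested. Other lymphocytes overlapped the cortical surface border macrophage-like levels. CD8 T-like cells had 53.2 and 35.8 CPM in CSA3 and CSA4 and 35.7 and 64.5 in BA1 and BA2. NK-like cells lay between 29.2 and 58.5 CPM and B-like cells between 35.4 and 61.7.

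Il17rc was found in every stromal class and, at levels in the same range, in some others: choroid plexus-like cells had 16.4, 10.9 and 34.5 CPM in CSA3, CSA4 and BA1, Schwann-like cells 11.1 and 25.7 in BA1 and BA2, and astrocyte-like cells 21.6 in CSA2, from 1 to 29 UMIs each. Shares of the gene's UMIs follow class size as well as level. In mesenchymal-like cells it was 15.4, 24.3, 13.4 and 7.70 CPM in CSA1 to CSA4 and 23.6 and 33.3 in BA1 and BA2 (-0.62 ± 0.40 on the log2 scale, adjusted p = 0.34, edgeR's quasi-likelihood test). In endothelial-like cells it was 33.5, 29.2, 19.1 and 21.3 CPM and 12.2 and 18.02, with every cortical surface library above both bone-associated ones, but the difference did not pass (0.76 ± 0.30, adjusted p = 0.11). Pericyte-like cells had 36.5, 39.3, 10.2 and 17.1 CPM and 32.3 and 39.5 (-0.56 ± 0.36, adjusted p = 0.36), where CSA3 and CSA4 were the low libraries. VSMC-like cells had 22.0 and 31.9 in CSA1 and CSA2 and 18.5 and 24.2 in BA1 and BA2 (0.23 ± 0.32, adjusted p = 0.78). Mesenchymal-like and endothelial-like cells did not differ past the threshold (0.20 ± 0.32, adjusted p = 0.66). γδ T-like cells held 0.85% of Il17rc UMIs. Each receptor chain was detected in a minority of stromal cells. Of 281 bone-associated mesenchymal-like cells, 23 had both chains, 28 Il17ra only and 80 Il17rc only. Of 546 cortical surface endothelial-like cells the counts were 7, 38 and 75. Il17rc was found in 45.1% of these mesenchymal-like cells with Il17ra and 34.8% of those without. In the endothelial-like cells the shares were 15.6% and 14.97%. Il17rc was also more frequent with Il17ra in cortical surface mesenchymal-like cells (25% and 14.5%). So it was in bone-associated endothelial-like (14.1% and 11.9%), pericyte-like (34.4% and 26.3%) and VSMC-like cells (41.7% and 21.6%). In cortical surface pericyte-like (12.1% and 12.5%) and VSMC-like cells (22.2% and 31.5%) the order was opposite. Those VSMC-like cells rested on 2 with both chains and 7 with Il17ra only. The low joint counts therefore do not show that the chains avoid the same cell.

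Genes known to respond to interleukin 17 were higher in bone-associated stroma in most tests. In pericyte-like cells 8 of the 16 listed genes were tested and 8 were higher in the bone-associated preparation, with a median log2 difference of -4.33 against 0.00 over all tested genes, of which 8.28% were called higher in the bone-associated and 2.43% in the cortical surface preparation. Ptgs2, which encodes the inducible prostaglandin synthase, had 0 against 594 UMIs, at least 300-fold higher, and the chemokine genes Cxcl10 (-9.78) and Ccl7 (-6.20) and the adhesion gene Vcam1 (-4.65) had the next largest differences among those named. In mesenchymal-like cells 7 were tested, 4 were higher in the bone-associated preparation, among them the neutrophil attractant gene Cxcl1 (-4.81), Ccl7 (-4.71) and Ptgs2 (-3.32), and Vcam1 (2.73) was higher in the cortical surface preparation. Over all genes tested in mesenchymal-like cells, 9.12% were called higher in the bone-associated and 6.01% in the cortical surface preparation. In endothelial-like cells 4 of 7 were higher in the bone-associated preparation, where 4.68% of all tested genes were, namely Cxcl10 (-4.09), Cxcl1 (-2.08), Icam1 (-1.90) and Ptgs2 (-1.74), and 3 did not pass. In VSMC-like cells Cxcl1 (-4.20) and Cxcl12 (-3.32) were higher, the 2 that were tested, where 3.95% of all tested genes were called in that direction and 2.29% in the other. In γδ T-like cells the 2 tested genes of this list, Ptgs2 (-8.01) and Icam1 (-3.19), were also higher in the bone-associated preparation. In CD4 T-like cells the 1 tested, Icam1 (-1.91), was too. In those classes 5.53% and 6.73% of all tested genes were called in that direction. The direction was therefore not particular to the stromal classes. The listed genes also respond to interleukin 1, whose gene Il1b is given with the signalling genes, and its part in these differences was not tested. Tissue handling also differed between the preparations, and its part was not tested.

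The signalling list gave the same direction, in the T-cell classes as well as in stroma. As given above, 8 of 14 tested genes were higher in bone-associated γδ T-like and 7 of 14 in bone-associated CD4 T-like cells. Those classes held 7 and 1 Il17rc UMIs, so this direction was not particular to the stromal classes. In pericyte-like cells 7 of 15 tested genes of interleukin 17 receptor signalling were higher in the bone-associated preparation, in mesenchymal-like and endothelial-like cells 4 of 13 each, and in VSMC-like cells 3 of 13, with none higher in the cortical surface preparation. They included Nfkbiz, which encodes the cofactor IκBζ (-3.79 in pericyte-like, -3.81 in mesenchymal-like and -2.47 in endothelial-like cells), Tnfaip3, which encodes the brake A20 (-3.58 in pericyte-like cells), and the factor gene Cebpd (-2.41 in mesenchymal-like and -2.06 in endothelial-like cells). Traf3ip2, which encodes the adaptor Act1, was tested between preparations in VSMC-like (0.53), γδ T-like (1.10) and CD4 T-like cells (1.24) and was not called. The factor gene Rela was not called in any stromal class (-0.33 to -0.02). Il6, a cytokine gene that helps to induce type 17 cells, was higher in bone-associated pericyte-like (-7.27) and VSMC-like cells (-6.86). Il1b, which encodes a ligand of Il1r1, averaged 4184 ± 478 CPM (SD, n = 2) in bone-associated and 685 ± 147 (n = 2) in cortical surface neutrophil-like cells, with no overlap and no test made. Here too the cortical surface side was CSA3 and CSA4, the libraries rich in hemoglobin, so preparation and blood content cannot be told apart. Between mesenchymal-like and endothelial-like cells, Il17d, another family member, was 5.00 higher on the log2 scale in mesenchymal-like cells, whereas Sigirr (-7.04), an interleukin 1 receptor family inhibitor, and Ptgs2 (-3.49) were higher in endothelial-like cells.

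The genes of most similar pattern followed the classes that hold each member. Over 39 sums of a class in a preparation and 15153 genes, the closest to Il17a were Il17f (Pearson's r = 0.905), Actn2 (0.885), Ccr6 (0.863), 5830411N06Rik (0.860) and Il17re (0.852). For Il17f, after Il17a, they were Ccr6 (0.826), Ctla4 (0.7997), Tnfrsf4 (0.784) and Ccr4 (0.768). For Il23r they were Tdrd9 (0.970), Cd163l1 (0.963), Fam83a (0.960), Tcrg-V6 (0.960) and Lingo4 (0.945). For Il1r1 they were lower, at 0.819 for Plcb4, 0.785 for Sox13, 0.772 for Sdc1, 0.740 for Stx1a and 0.735 for Pde5a. Il17ra was closest to the leukocyte genes Trim30a (0.871), Hcls1 (0.860), Arhgdib (0.859), Grk2 (0.858) and Lcp1 (0.851), and Il17rc to the adherent-cell genes Yap1 (0.959), Syde1 (0.940), Serpinh1 (0.935), Parva (0.934) and Trip6 (0.920). Cd163l1, Tcrg-V6, Sox13, 5830411N06Rik, Ctla4 and Tnfrsf4 are among the markers that named the classes, so their correlations were partly built in. The points share libraries, and the correlations are a description.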

How the data were processed

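The authors deposited, for each library, a filtered matrix of raw UMI counts per gene and barcode, aligned to mm10. The submitters' processing notes name Cell Ranger 3, and the file headers name version 6.1.2. Mice were pooled within each library. The labels' extraction protocol describes another tissue, so the digestion is not described here.

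Barcodes under 500 genes or over 10% mitochondrial UMIs were removed, which left 8804 of 17560 barcodes, and 124 simulated-doublet calls were removed. Cells of each preparation were clustered separately (2000 variable genes, 30 principal components, Leiden resolution 1.5) and classes named from marker lists. The T and NK cells of both preparations were then clustered together to name the T-cell classes. The rule for mixed clusters and an exemption for T and NK cells were set after the clusters were seen. By that rule a second class reached at least 67% of the best class's share of listed markers. The 6 members, the marker lists and the 7 pathway lists (80 genes) were chosen with earlier results of these data known, and no list is independent support.

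UMI counts were summed over each class in each library with at least 10 cells and tested with edgeR 4.0.16 (R 4.3.3), TMM scaling and the quasi-likelihood F-test, for genes with a UMI in more than 10% of cells on at least 1 side, with Benjamini-Hochberg adjustment over all tested genes. The SE is the log2 difference divided by the square root of F. CPM are UMIs per 1000000 UMIs of the class sum. A call needs an adjusted p under 0.05 and a log2 difference of at least 1.3. Comparisons of classes had the library as a block. Floors are 3 counts over a group, and intervals (95%, exact binomial) cover counting error only. Pathway genes named were up to 4 called genes of a list by size of difference (50 UMIs or more on the higher side), and similar genes the 5 highest by Pearson correlation of log2(CPM + 10). On simulated counts with 4-fold changes, 165 of 198 changed genes were recovered with 8 false calls for mesenchymal-like cells between preparations (9536 genes), and 193 of 200 with 3 false calls for γδ against CD4 T-like cells (5524 genes). Alternatives were DESeq2 1.42.0, no expression filter, other cell filters, hemoglobin genes left out, a replicate block and leaving out each library. Some items are not reported here. Clustering used scikit-learn 1.9.0, igraph 0.11.9 and leidenalg 0.10.2 in Python 3.11.15.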

Additional observations from a re-analysis of the deposited data

Results flagged for a closer look

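Il17ra in endothelial-like cells of CSA3, at 38.2 CPM, was far from the other cortical surface libraries, which lay between 11.2 and 14.3 (a gap of 0.883 of the group's whole range, past Dixon's 95% critical value for 4 samples). It was the 1 such sample in 9 groups of 4 libraries examined, and chance flags about 1 in 20 groups.

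The preparation effect on Il1r1 (log2 cortical surface over bone-associated) differed between endothelial-like cells and 4 other classes in a test of the difference itself (edgeR's quasi-likelihood test with the library as a block, chosen after seeing the data). The pairs were picked for opposite order without overlap of libraries, which the adjustment does not cover, and no library was left out. It was larger in endothelial-like cells by 2.21 ± 0.25 against pericyte-like (adjusted p = 6.6e-06), by 1.43 ± 0.25 against VSMC-like (adjusted p = 0.00068), by 2.04 ± 0.42 against γδ T-like (adjusted p = 0.00012, 2.58% of genes called) and by 4.97 ± 0.94 against CD4 T-like cells (adjusted p = 1.1e-05, 4.93% of genes called). The effect on Il17ra was positive in γδ T-like and negative in pericyte-like cells with no overlap of libraries in either, but the difference of 2.22 ± 0.80 did not pass (adjusted p = 0.12, 2.86% of genes called).

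The 8880 barcodes left out by the cell filters also held UMIs of the members, namely 216 of 3607 Il17a UMIs, 16 of 249 Il17f, 5 of 145 Il23r, 359 of 2560 Il1r1, 259 of 3720 Il17ra and 224 of 1047 Il17rc UMIs.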

How the results depend on the processing

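Of 199 alternative values of member differences, 190 kept their direction and side of the threshold, as did 56 of 62 counts of called genes by staying within 1.5 times. These tallies leave out the fits without 1 library, whose ranges are given below and in which calls were lost. Member values with no adjusted p are also left out. Of 196 alternative levels 26 moved by more than 1 SD, 16 of them among the 49 thinned ones. The causes were not tested. Counts of called genes moved to 922 from 520 in endothelial-like cells with no expression filter, to 458 from 856 in pericyte-like cells with at least 1000 genes a cell, and with DESeq2 to 164 from 385 in γδ T-like cells, to 213 from 475 in CD4 T-like cells and to 225 from 400 between these classes. Between preparations, Il1r1 turned to 0.039 in mesenchymal-like cells with up to 20% mitochondrial UMIs and weakened to -2.90 in CD4 T-like cells at that limit and to -1.06 in pericyte-like cells with at least 1000 genes. In CD4 T-like cells Il17a passed with no expression filter (-3.09) or hemoglobin genes left out (-2.84), Il17f passed with no filter (-2.12), and Il17ra turned to -0.16 with no filter. Between γδ and CD4 T-like cells Il17a fell short with DESeq2 (-0.21). The γδ share of Il17a UMIs was 34.4% by a per-cell marker gate and 28.1% over every deposited barcode.

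Leaving out 1 library at a time, values between preparations ranged from -0.59 to 0.24 for Il1r1 in mesenchymal-like cells, from -1.87 to -0.64 for Il1r1 and -1.61 to -0.81 for Il17ra in pericyte-like cells, from -0.18 to 0.51 for Il17rc in VSMC-like cells, from -1.89 to -0.86 for Il23r in γδ T-like cells, and in CD4 T-like cells from -12.80 to -2.17 for Il17a, -6.11 to -1.12 for Il17f, -6.39 to -3.16 for Il1r1 and -0.62 to 0.27 for Il17ra. Genes called ranged from 255 (without CSA4) to 374 in γδ T-like cells, from 242 (without CSA4) to 586 in CD4 T-like cells and from 256 (without BA2) to 399 between these classes. Between them Il17a ranged from -3.00 to -0.98 (the latter without BA1, short of the fold threshold) and Il17ra from -0.49 to 0.25, and Il17rc ranged from -0.18 to 0.43 between mesenchymal-like and endothelial-like cells. The γδ share ranged from 8.92% to 42.4% for Il17a, 14.1% to 22.2% for Il17f and 76.4% to 87.7% for Il23r UMIs. Where 1 library remained on a side, its spread was assumed to be that of the other side.

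Without the library as a replicate block, 220 genes were called between γδ and CD4 T-like cells and Il17a (-1.94) fell short. Replicate numbers 1 and 2 occur in both preparations, but same-numbered libraries deviated together only weakly (correlations of 0.04 to 0.37 over 2 pairs), so the numbers were not taken to pair libraries. A replicate block on them gave 1454, 493, 844 and 564 called genes in mesenchymal-like, endothelial-like, pericyte-like and VSMC-like cells, with Il1r1 at -0.47, 0.90, -1.44 and -0.56, and changed no call of a member. No paired analysis was possible for the preparations of γδ and CD4 T-like cells because their libraries share fewer than 2 numbers. Few cells limit the γδ and CD4 T-like values: from 3 to 22 γδ T-like cells in every library but BA2.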
